A study of Mus musculus with 8 samples.

Results

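The genes described here are 10 genes of antigen presentation, out of 30395 genes listed for the series. They were taken by symbol: the class I genes H2-K1, H2-D1 and B2m, the peptide transporter gene Tap1, the immunoproteasome genes Psmb8 and Psmb9, and the class II genes Cd74, H2-Aa, H2-Ab1 and H2-Eb1. All 10 passed the filter of at least 1 CPM (reads scaled to a library total of 1000000) in at least 2 libraries. RNA of sorted mesenchymal cells of mouse liver was sequenced with SMART-Seq2, which amplifies whole cDNA by PCR. The 8 libraries formed 4 groups of 2: Gli1+ peribiliary mesenchymal cells 5 d after BDL (ligation of the bile duct, which stops the flow of bile), Gli1+ cells of uninjured liver, stellate cells 5 d after BDL and stellate cells of uninjured liver. Every group came from mice 8 weeks old, on a mixed strain of C57BL/6 and SWR/J, with the genotype Gli1:CreER+/-; Ai9+/-, so the controls and the stellate cells carried the same Cre and reporter alleles. In this cross the Gli1 gene drives an inducible Cre, which can switch on a red reporter. The sources used here give neither the gates of the sort nor any induction of the Cre, and do not say whether animals were pooled. Since the labels do not name separate animals for replicates 1 and 2, the spread behind each p-value is that of these libraries and may be technical.

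Class I molecules sit on nearly all nucleated cells. They carry peptides from inside the cell to CD8 T cells and consist of a heavy chain (H2-K or H2-D) and the light chain beta-2 microglobulin. Their peptides are cut by the proteasome, in which inflammatory signals can exchange the catalytic subunits for immunoproteasome subunits, and are pumped into the endoplasmic reticulum by the TAP transporter. Class II molecules, built from an alpha and a beta chain, present peptides of endocytic origin to CD4 T cells. They are made by dendritic cells, B cells and many macrophages, including part of the Kupffer cells of the liver, and are inducible by interferon gamma in other cells. Cd74, the invariant chain, escorts them and fills their groove until a peptide is loaded.

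Library totals ranged from 11261775 to 19180370 reads, so that 3 reads in a library stood for 0.156 to 0.266 CPM. The sorts could be told apart by their markers: all 10 stellate markers (Lrat and Reln among them) were lower in Gli1+ libraries, in uninjured liver and after BDL. Of 10 portal fibroblast markers, 10 were higher in uninjured liver and 8 after BDL (limma, Benjamini-Hochberg (BH) adjusted p below 0.05). By the same test all 10 mesothelial markers were higher in both conditions, and 6 of 10 cholangiocyte markers in uninjured liver and 10 after BDL. The markers higher in Gli1+ libraries were thus not those of portal fibroblasts alone. Over all genes 11.1% were called in uninjured liver and 6.80% after BDL, in either direction. Other cells also left transcripts. The 18 macrophage markers summed to 2319 and 3433 CPM in Gli1+ BDL, 4521 and 2099 CPM in uninjured Gli1+ libraries, 2436 and 1744 CPM in stellate BDL and 14306 and 86.9 CPM in uninjured stellate libraries. Uninjured stellate replicate 1 therefore stood apart: Clec4f, a Kupffer cell lectin, had 2185 CPM there and 4.48 CPM in replicate 2. In replicate 2, 3 of the 18 markers were at 0. The 10 mesothelial markers summed to 6111 and 3747 CPM in Gli1+ BDL, 4069 and 10536 CPM in uninjured Gli1+ libraries, 66.1 and 81.7 CPM in stellate BDL and 4.28 and 10.2 CPM in uninjured stellate libraries, and the 10 cholangiocyte markers to 15566 and 7539 CPM in Gli1+ BDL, 4047 and 3174 CPM in uninjured Gli1+ libraries, 181 and 756 CPM in stellate BDL and 7.03 and 3.81 CPM in uninjured stellate libraries. Class II fold changes against the uninjured stellate libraries are also given without that library.

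Among the class I genes, all 3 had fewer CPM in Gli1+ than in stellate libraries after BDL, with no overlap. H2-K1, a classical class I heavy chain (chromosome 17, 33996017 to 34000347, minus strand, GRCm38), had 673 and 1113 CPM in the Gli1+ BDL libraries, 1282 and 2727 CPM in the uninjured Gli1+ libraries, 2311 and 2366 CPM in the stellate BDL libraries and 3314 and 2523 CPM in the uninjured stellate libraries. The lowest library of all 8 was Gli1+ BDL replicate 1, and the Gli1+ BDL libraries lay below every other library. H2-D1, the other classical heavy chain (chromosome 17, 35262730 to 35267499, plus strand), had 1542 and 973 CPM in the Gli1+ BDL libraries, 2839 and 4958 CPM in the uninjured Gli1+ libraries, 7905 and 3766 CPM in the stellate BDL libraries and 8258 and 7186 CPM in the uninjured stellate libraries. Again both Gli1+ BDL libraries lay below the other 6, while stellate BDL replicate 2 lay below uninjured Gli1+ replicate 2. The share of all genes with both Gli1+ BDL libraries below the other 6 was not counted, here and for the genes below. Lower without overlap in Gli1+ BDL were 16.2% of all genes against uninjured Gli1+ and 19.0% against stellate BDL libraries. B2m, the light chain shared by all class I molecules (chromosome 2, 122147686 to 122153083, plus strand), had 1835 and 3165 CPM in the Gli1+ BDL libraries, 4654 and 6647 CPM in the uninjured Gli1+ libraries, 7731 and 8245 CPM in the stellate BDL libraries and 12752 and 8908 CPM in the uninjured stellate libraries. For B2m the 4 Gli1+ libraries lay below the 4 stellate libraries. These bulk values cannot tell fewer cells of a type from less RNA per cell.

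Length here was that of all annotated exons of a gene merged, which can exceed that of any single transcript. Ranks between genes therefore depend on the annotation. Per length of exons, B2m had the highest level of the 10 genes in all 8 libraries. It averaged 2907 CPM per kb in Gli1+ BDL, 6570.5 in uninjured Gli1+, 9288 in stellate BDL and 12593 in uninjured stellate cells. On the same scale H2-D1 stood above H2-K1 in 7 of 8 libraries, and Tap1 had the lowest level of the 10 genes in 6 of 8. The ratio of H2-D1 to H2-K1 in CPM was 2.29 and 0.87 in Gli1+ BDL, 2.22 and 1.82 in uninjured Gli1+, 3.42 and 1.59 in stellate BDL and 2.49 and 2.85 in uninjured stellate libraries, so the heavy chains did not keep a fixed ratio even within a group. The mice were of mixed strain, the 2 heavy chains are close paralogs of polymorphic loci, and the sources used here do not say how reads with several matches were counted. Values of single H2 heavy chains are uncertain for that reason.

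Tap1 codes for a subunit of the peptide transporter, and Psmb8 and Psmb9 for catalytic subunits of the immunoproteasome. The 3 genes lie side by side in the class II region of chromosome 17: Psmb9 from 34181987 to 34187764 on the minus strand, Tap1 from 34187553 to 34197225 and Psmb8 from 34197721 to 34201454, both on the plus strand. Tap1 had 21.3 and 41.5 CPM in the Gli1+ BDL libraries, 32.9 and 89.2 CPM in the uninjured Gli1+ libraries, 54.6 and 61.3 CPM in the stellate BDL libraries and 127 and 69.7 CPM in the uninjured stellate libraries. Its libraries overlapped between Gli1+ BDL and uninjured Gli1+ cells, and Gli1+ BDL lay below stellate BDL. Psmb8 had 74.7 and 75.0 CPM in the Gli1+ BDL libraries, 113 and 227 CPM in the uninjured Gli1+ libraries, 157 and 126 CPM in the stellate BDL libraries and 237 and 136 CPM in the uninjured stellate libraries, with both Gli1+ BDL libraries below all others. Psmb9 had 37.8 and 46.0 CPM in the Gli1+ BDL libraries, 88.8 and 169 CPM in the uninjured Gli1+ libraries, 79.2 and 60.4 CPM in the stellate BDL libraries and 240.1 and 89.9 CPM in the uninjured stellate libraries, again with Gli1+ BDL below all others. The ends of Psmb9 and Tap1 overlap by some bases on opposite strands, and the sources used here do not name the strand setting.

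**Figure D1:**
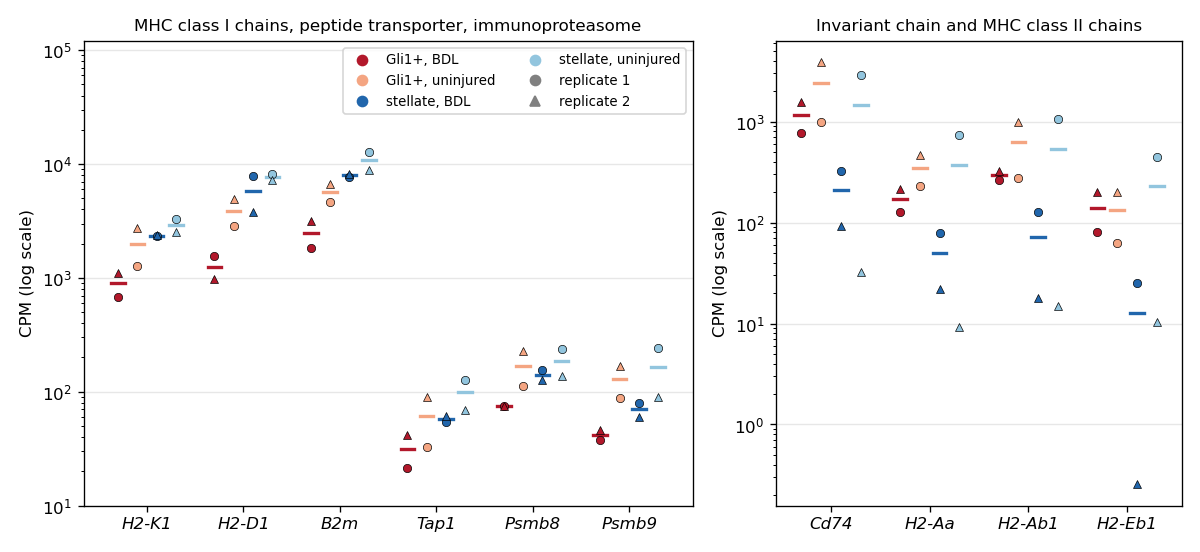
CPM of each of the 10 genes (log axis) by library in Gli1+ BDL, uninjured Gli1+, stellate BDL and uninjured stellate cells. Circles are replicate 1, triangles replicate 2 and bars the mean of 2 libraries. The class I and processing genes lie lowest in Gli1+ BDL libraries, apart from Tap1, whose Gli1+ groups overlap, and the class II genes of uninjured stellate cells split into a high replicate 1 and a low replicate 2.

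The class II genes behaved differently across libraries. Cd74, the invariant chain (chromosome 18, 60803848 to 60812652, plus strand), had 768 and 1551 CPM in the Gli1+ BDL libraries, 999.9 and 3862 CPM in the uninjured Gli1+ libraries, 324 and 91.7 CPM in the stellate BDL libraries and 2895 and 32.1 CPM in the uninjured stellate libraries. H2-Aa, the alpha chain of the A molecule (chromosome 17, 34282744 to 34287823, minus strand), had 128 and 214 CPM in the Gli1+ BDL libraries, 233 and 464 CPM in the uninjured Gli1+ libraries, 78.2 and 22.2 CPM in the stellate BDL libraries and 731 and 9.18 CPM in the uninjured stellate libraries. H2-Ab1, its beta chain (chromosome 17, 34257689 to 34269419, plus strand), had 265 and 323 CPM in the Gli1+ BDL libraries, 274 and 991 CPM in the uninjured Gli1+ libraries, 127 and 18 CPM in the stellate BDL libraries and 1057 and 15.0 CPM in the uninjured stellate libraries. In each of these 3 genes the uninjured stellate libraries were split, with replicate 1 near or above the Gli1+ libraries and replicate 2 the lowest of all 8.

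H2-Eb1, the beta chain of the E molecule (chromosome 17, 34305867 to 34316674, plus strand), had 80.6 and 201 CPM in the Gli1+ BDL libraries, 63.0 and 201 CPM in the uninjured Gli1+ libraries, 25.0 and 0.255 CPM in the stellate BDL libraries and 448 and 10.3 CPM in the uninjured stellate libraries. Its uninjured stellate libraries were split as well, and the lowest library was stellate BDL replicate 2, where 0.255 CPM were 3 reads. The E alpha pseudogene H2-Ea-ps had 1 read over all 8 libraries. As background, mice of the b and q haplotypes, which C57BL/6 and SWR/J carry, do not make the E alpha chain, so the E beta transcript there has no partner.

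Class II levels ran beside macrophage levels in uninjured stellate cells but less closely elsewhere. The 4 class II genes summed to 1242 and 2289 CPM in Gli1+ BDL, 1569 and 5518 CPM in uninjured Gli1+ libraries, 554 and 132 CPM in stellate BDL and 5131 and 66.5 CPM in uninjured stellate libraries. The ratio of this sum to the macrophage sum was 0.54 and 0.67 in Gli1+ BDL, 0.35 and 2.63 in uninjured Gli1+, 0.23 and 0.08 in stellate BDL and 0.36 and 0.77 in uninjured stellate libraries. Uninjured Gli1+ replicate 2 thus had the highest class II sum of all 8 libraries beside a macrophage sum below that of replicate 1. Its mesothelial sum was also the highest of all 8. The parts of macrophage and mesothelial transcripts in the class II values were not tested.

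Markers of the other common class II cells were low. The 10 dendritic cell markers summed to 46.4 and 58.1 CPM in Gli1+ BDL, 33.7 and 48.0 CPM in uninjured Gli1+ libraries, 70.1 and 96.4 CPM in stellate BDL and 112 and 41.1 CPM in uninjured stellate libraries, with all but Zbtb46 at 0 in uninjured stellate replicate 2. The 8 B cell markers summed to 6.37 and 6.05 CPM in Gli1+ BDL, 21.0 and 0.970 CPM in uninjured Gli1+ libraries, 6.83 and 9.34 CPM in stellate BDL and 25.4 and 4.28 CPM in uninjured stellate libraries. In uninjured Gli1+ replicate 2, Zbtb46 alone had 40.8 CPM of the dendritic sum. After BDL, 2 of 7 tested dendritic markers were higher and 3 lower in Gli1+ than in stellate libraries without overlap. Over all genes these shares were 34.8% and 19.0%. The 2 higher were Flt3 (5.00 and 5.87 against 0 and 0 CPM) and Cd209a (6.53 and 6.59 against 0 and 0.170 CPM). The 3 lower were Zbtb46 (21.6 and 31.5 against 39.9 and 66.9 CPM), Clec9a (4.03 and 1.98 against 7.94 and 14.9 CPM) and Batf3 (1.45 and 0.12 against 17.1 and 5.86 CPM). The part of dendritic and B cell transcripts in the class II values was not tested. Among class II genes the ratio of Cd74 to H2-Aa, in CPM, spanned 3.49 to 8.32 over the 8 libraries and that of Cd74 to H2-Ab1 2.14 to 5.09, while Cd74 itself spanned 32.1 to 3862 CPM. The ratio of Cd74 to H2-Eb1 varied more, from 3.11 to 19.2 in 7 libraries and 360.0 in stellate BDL replicate 2, where H2-Eb1 had 3 reads.

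**Figure D2:**
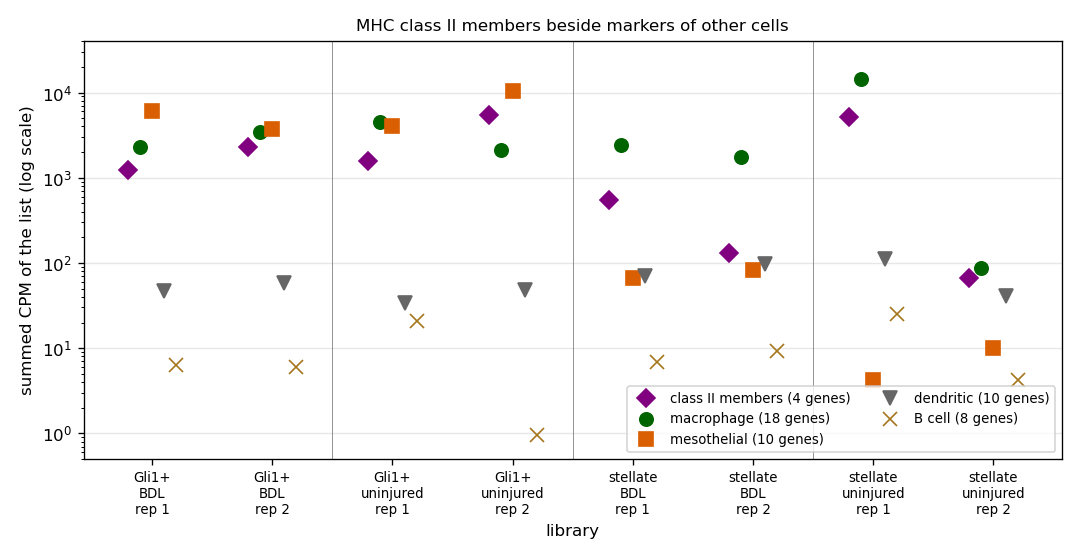
Summed CPM (log axis) of the 4 class II genes and of marker lists of macrophages (18 genes), mesothelial cells (10), dendritic cells (10) and B cells (8) in each of the 8 libraries, by group. The class II and macrophage sums are both high in uninjured stellate replicate 1 and low in replicate 2, while uninjured Gli1+ replicate 2 has the highest class II sum with a macrophage sum of 2099 CPM.

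Stretches upstream of these genes are shown because the class I and the class II genes are known to share promoter elements. Of the 10 genes, 8 matched the RefSeq promoter table (GRCm38.p6), the others being H2-Ab1 and Cd74. Each stretch is the 250 bases before the listed start, read 5′ to 3′ on the gene's strand, with matches in capitals. The motifs searched, on both strands, were GATTGG (the Y box core), TGACG (the first bases of a CRE, a cyclic AMP response element), AACTGATG (part of the X box), GAAANNGAA (the ISRE core, bound by interferon regulatory factors) and GGGATTCCC (the core of a kB site).
H2-K1: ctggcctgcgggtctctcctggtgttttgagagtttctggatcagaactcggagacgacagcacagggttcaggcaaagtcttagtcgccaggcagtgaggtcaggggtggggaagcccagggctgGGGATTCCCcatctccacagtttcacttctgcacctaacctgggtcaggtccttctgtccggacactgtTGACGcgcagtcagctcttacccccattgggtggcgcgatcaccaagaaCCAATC
H2-D1: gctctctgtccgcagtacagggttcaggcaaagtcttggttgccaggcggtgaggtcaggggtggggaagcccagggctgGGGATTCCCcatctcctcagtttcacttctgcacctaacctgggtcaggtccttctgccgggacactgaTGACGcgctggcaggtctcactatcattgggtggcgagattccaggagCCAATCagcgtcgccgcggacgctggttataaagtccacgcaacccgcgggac
B2m: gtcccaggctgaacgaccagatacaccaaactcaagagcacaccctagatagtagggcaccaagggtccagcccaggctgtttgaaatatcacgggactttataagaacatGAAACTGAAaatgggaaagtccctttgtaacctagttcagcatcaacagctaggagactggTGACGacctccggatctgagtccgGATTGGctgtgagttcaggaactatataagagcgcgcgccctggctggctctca
Tap1: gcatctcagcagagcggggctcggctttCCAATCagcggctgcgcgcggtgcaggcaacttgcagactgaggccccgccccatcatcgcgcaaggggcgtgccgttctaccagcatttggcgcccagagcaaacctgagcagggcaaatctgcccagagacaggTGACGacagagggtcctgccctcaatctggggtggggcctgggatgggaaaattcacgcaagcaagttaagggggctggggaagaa
H2-Aa: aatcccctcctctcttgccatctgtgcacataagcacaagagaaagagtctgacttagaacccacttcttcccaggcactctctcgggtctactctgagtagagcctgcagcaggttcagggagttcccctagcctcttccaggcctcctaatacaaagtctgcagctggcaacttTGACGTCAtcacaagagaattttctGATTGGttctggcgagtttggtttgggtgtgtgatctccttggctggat
H2-Eb1: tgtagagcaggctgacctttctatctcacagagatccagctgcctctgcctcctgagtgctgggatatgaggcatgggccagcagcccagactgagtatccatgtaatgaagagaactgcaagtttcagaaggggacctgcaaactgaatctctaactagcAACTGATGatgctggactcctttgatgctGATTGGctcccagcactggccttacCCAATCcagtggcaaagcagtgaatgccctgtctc

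These stretches are chr17:34000334-34000583 (minus strand) for H2-K1, whose start is the further downstream of 2 listed, and chr17:35262844-35263093 (plus strand) for H2-D1. They are chr2:122147437-122147686 (plus strand) for B2m, chr17:34187306-34187555 (plus strand) for Tap1, chr17:34287824-34288073 (minus strand) for H2-Aa and chr17:34305617-34305866 (plus strand) for H2-Eb1. The H2-D1 stretch lies inside the gene span given above, which starts at 35262730, so its positions hold for the RefSeq start only. H2-K1 and H2-D1 each held the kB core, first base at -124 and -170 from the start, which was found in 0.301% of 32851 windows of this length. B2m held the ISRE core at -139, found in 7.13% of windows. H2-Eb1 held the X box letters at -89, found in 0.676% of windows. The Y box core was in the stretch of each of the 6 genes, at -6 in H2-K1, -53 in H2-D1, -54 in B2m, -222 in Tap1, -49 in H2-Aa, and at -60 and -35 in H2-Eb1; it was in 14.6% of windows. TGACG, in 17.8% of windows, was in all but H2-Eb1, and in H2-Aa its matches on the 2 strands overlap. The stretch of Tap1 shares 225 of its 250 bases with that of Psmb9, which starts on the opposite strand. Psmb8 held none of these letters in its window. The matches are descriptions of sequence only. Only exact matches to the searched letters were marked, so a stretch without a match may still hold a variant of that motif.

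Tests were made with limma on log2(CPM + 1) over 16446 genes, and fold changes are given on that scale with the standard error (SE). Comparing Gli1+ with stellate cells in uninjured liver, limma called 0 of the 10 genes at a BH-adjusted p below 0.05. Over all genes tested, 11.1% were called. At an unadjusted p below 0.05 there were 0 of the 10 and 24.0% of all genes. Of the 10, edgeR called 0 and DESeq2 called 1, B2m. Over all genes DESeq2 also called more than limma in this comparison, as counted in the closing section. H2-D1 and B2m had libraries that did not overlap, lower in Gli1+ cells, H2-D1 at 3899 ± 1498 CPM in Gli1+ against 7722 ± 758 CPM in stellate cells and B2m at 5651 ± 1409 CPM in Gli1+ against 10830.2 ± 2718 CPM in stellate cells (SD, n = 2). Of all genes, 14.6% did not overlap in that direction. Their log2 fold changes were -1.04 ± 0.50 (SE, limma BH-adjusted p = 0.252) and -0.94 ± 0.45 (adjusted p = 0.256).

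The 6 class I and processing genes had a median log2 fold change of -0.71 in uninjured liver, beside 0.32 for all genes. The all-gene medians of the 5 contrasts (Gli1+ against stellate cells uninjured and after BDL, the BDL responses of Gli1+ and of stellate cells, and their difference) were 0.32, 0.23, 0.12, 0.19 and -0.12 in CPM, and 0.12, 0.09, 0.08, 0.09 and -0.07 after TMM scaling, so fold changes are read relative to them. Psmb8 at -0.16 ± 0.42 and Psmb9 at -0.26 ± 0.52 stood nearest to 0. The 4 class II genes had a median of 1.97, with SEs from 1.60 to 1.77. Without uninjured stellate replicate 1, Cd74 stood at 5.89, H2-Aa at 5.02, H2-Ab1 at 5.03 and H2-Eb1 at 3.33. The stellate library then left, replicate 2, had a macrophage sum of 86.9 CPM. That sum was 4521 and 2099 CPM in the uninjured Gli1+ libraries, and its part in these fold changes was not tested. Without uninjured stellate replicate 2, Cd74 stood at -0.56, H2-Aa at -1.15 and H2-Ab1 at -1.02. With all 8 libraries edgeR put H2-Aa at -0.22 and H2-Eb1 at -0.92, against 1.93 and 0.67 by limma. The lone stellate library left is assumed to vary like the other groups in these fits.

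After BDL, limma called 1 of the 10 genes, H2-D1, which was lower in Gli1+ cells. Of all genes, 6.80% were called, and 2.36% were called as lower. At an unadjusted p below 0.05 stood 4 of the 10 (H2-K1, H2-D1, B2m and H2-Eb1) and 19.6% of all genes. H2-D1 averaged 1258 ± 402 CPM in Gli1+ BDL and 5836 ± 2927 CPM in stellate BDL cells (SD, n = 2), a log2 fold change of -2.15 ± 0.50 (SE, limma BH-adjusted p = 0.0359). B2m, at 2500.0 ± 941 CPM in Gli1+ BDL and 7988 ± 364 CPM in stellate BDL cells, did not pass, nor did H2-K1, at 893 ± 311 CPM in Gli1+ BDL and 2339 ± 39.3 CPM in stellate BDL cells. B2m stood at -1.73 ± 0.45 (adjusted p = 0.0594) and H2-K1 at -1.43 ± 0.44 (adjusted p = 0.103). The call of H2-D1 was lost without any single BDL library, with adjusted p of 0.120 without Gli1+ replicate 1, 0.213 without Gli1+ replicate 2, 0.302 without stellate replicate 1 and 0.0891 without stellate replicate 2. It was also lost with edgeR (0.0580) and with no filter on low values (0.159). DESeq2 called H2-K1, H2-D1 and B2m, but its share of all genes in this comparison is not given here.

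After BDL none of the 10 genes overlapped between the populations: all 6 class I and processing genes were lower and all 4 class II genes higher in Gli1+ cells. Over all genes 19.0% did not overlap in the lower and 34.8% in the higher direction. The 6 genes had a median of -1.18 and the 4 class II genes 2.62, beside 0.23 for all genes. Class II SEs were as wide as before, and H2-Eb1, at 141 ± 84.8 CPM in Gli1+ BDL and 12.6 ± 17.5 CPM in stellate BDL cells, stood at 4.49 ± 1.77 (unadjusted p = 0.0328, limma BH-adjusted p = 0.198). Cd74 had a log2 fold change of 2.65 ± 1.72 (adjusted p = 0.482). Leaving out 1 library, H2-Eb1 stood at 2.30 without stellate BDL replicate 2, the library with 3 reads of it, and at 6.68 without stellate BDL replicate 1. Of 18 macrophage markers, 17 had a fold change above 0 and 10 were higher in Gli1+ BDL libraries without overlap, with a median of 0.89. Limma called 0 of these markers, and 0 stood at an unadjusted p below 0.05. Their summed level overlapped, at 2319 and 3433 CPM in Gli1+ BDL against 2436 and 1744 CPM in stellate BDL libraries. Their part in the class II differences was not tested.

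**Figure D3:**
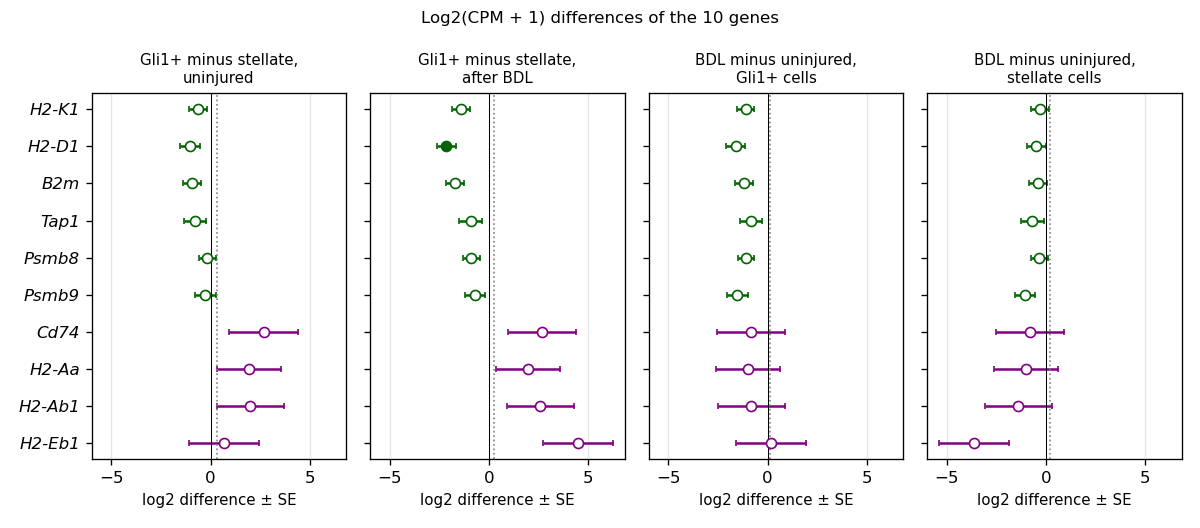
Log2 fold change (log2(CPM + 1) scale) of each of the 10 genes in the comparisons of the populations and in the BDL responses, with bars of 1 SE. Filled circles passed a limma BH-adjusted p of 0.05 (H2-D1 after BDL only), and the dotted line is the median of all 16446 genes.

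Within Gli1+ cells, BDL against uninjured, limma called 0 of the 10 genes and 0 of all genes (0.00%). At an unadjusted p below 0.05 stood 5 of the 10 and 11.0% of all genes. Of the 10, edgeR called 0 and DESeq2 called 1, H2-D1, where DESeq2 also called more of all genes than limma (closing section). The 5 genes at that unadjusted p were Psmb9 at -1.53 ± 0.52, H2-D1 at -1.61 ± 0.50, B2m at -1.21 ± 0.45, H2-K1 at -1.11 ± 0.44 and Psmb8 at -1.09 ± 0.42. Their limma BH-adjusted p ran from 0.236 to 0.393. All 5 stayed below 0 on leaving out any 1 library, but without uninjured Gli1+ replicate 2 H2-K1 stood at -0.57 and Psmb8 at -0.59. These 5 and H2-Aa had libraries that did not overlap, lower after BDL, a direction in which 16.2% of all genes did not overlap. The 6 class I and processing genes had a median of -1.16, against 0.12 for all genes. Cd74, H2-Ab1 and H2-Eb1 overlapped between BDL and uninjured libraries. Beside these values, the 10 cholangiocyte markers summed to 15566 and 7539 CPM in Gli1+ BDL and 4047 and 3174 CPM in uninjured Gli1+ libraries. For 10 hepatocyte markers the sums were 2469.9 and 12818 CPM in Gli1+ BDL and 1250.1 and 232 CPM in uninjured Gli1+ libraries. The portal fibroblast markers, which mark the sorted cells themselves, were lower after BDL without overlap in 6 of 10, with a median log2 fold change of -1.33 and sums of 3454 and 2853 CPM in Gli1+ BDL against 8849 and 6293 CPM in uninjured Gli1+ libraries. Of the 10 mesothelial markers 5 were lower and 2 higher without overlap, with a median of -1.25. Of 12 endothelial markers 11 had a fold change above 0 and 6 did not overlap, with a median of 1.43 and sums of 832 and 1322 CPM in Gli1+ BDL against 1078 and 216 CPM in uninjured Gli1+ libraries. None of these markers was called by limma, and the part of these transcripts in the class I values was not tested. The share of all genes higher without overlap was not counted for this response.

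Within stellate cells limma also called 0 of the 10 genes, where 0.225% of all genes were called. At an unadjusted p below 0.05 there were 0 of the 10 and 12.0% of all genes, and edgeR and DESeq2 called 0 of the 10. H2-K1, B2m, Tap1 and Psmb9 did not overlap, lower after BDL, where 12.2% of all genes did not. Psmb9 stood at -1.08 ± 0.52 (limma BH-adjusted p = 0.467). Its uninjured libraries were far apart, at 240.1 and 89.9 CPM, and without uninjured replicate 1 it stood at -0.37. The 6 genes had a median of -0.46 beside 0.19 for all genes. Class II genes had log2 fold changes from -3.64 (H2-Eb1) to -0.83 (Cd74), which depended on uninjured stellate replicate 1: without it Cd74 stood at 2.39, H2-Aa at 2.07, H2-Ab1 at 1.62 and H2-Eb1 at -0.99. Without replicate 2, Cd74 stood at -4.06 and H2-Aa at -4.09. Endothelial and hepatocyte markers were higher after BDL beside these values. All 12 endothelial markers had a fold change above 0 and 11 did not overlap (10 at an unadjusted p below 0.05, 0 called by limma, median 2.83), with sums of 2645 and 1879 CPM in stellate BDL against 745 and 182 CPM in uninjured stellate libraries. Of the hepatocyte markers 9 of 10 had a fold change above 0 and 8 did not overlap (0 called, median 3.22), with sums of 1436 and 1113 CPM in stellate BDL against 214 and 74.9 CPM in uninjured stellate libraries. Some other markers were called as higher by limma: 2 of 10 mesothelial, 1 of 10 cholangiocyte and 1 of 10 portal fibroblast markers. Of these lists 4, 5 and 7 genes were higher without overlap, with medians of 0.27, 0.31 and 1.72. The share of all genes higher without overlap was not counted for either BDL response. The part of all these transcripts in the values of the 10 genes was not tested.

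The difference of the BDL responses, Gli1+ minus stellate, was called in 0 of the 10 genes by limma, edgeR and DESeq2, and in 0.0122% of all genes by limma. An unadjusted p below 0.05 was found for 0 of the 10 and for 7.48% of all genes. The class I genes stood at -1.12 ± 0.70 for H2-D1, -0.80 ± 0.63 for H2-K1 and -0.79 ± 0.64 for B2m, with limma BH-adjusted p from 0.783 to 0.852. H2-Eb1 had 3.82 ± 2.5 (adjusted p = 0.794), and 1.16 without uninjured stellate replicate 1.

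The ratio of immunoproteasome to standard catalytic subunit transcripts was lowest in the Gli1+ BDL libraries. In each pair the immunoproteasome subunit takes the place of the standard one, Psmb8 of Psmb5, Psmb9 of Psmb6 and Psmb10 of Psmb7. The ratio of Psmb8 to Psmb5 in CPM was 1.0 and 1.14 in Gli1+ BDL, 3.20 and 4.55 in uninjured Gli1+, 3.51 and 2.45 in stellate BDL and 8.52 and 4.94 in uninjured stellate libraries. The ratio of Psmb9 to Psmb6 was 0.09 and 0.16 in Gli1+ BDL, 0.35 and 0.60 in uninjured Gli1+, 0.28 and 0.23 in stellate BDL and 0.67 and 0.39 in uninjured stellate libraries. For all 3 pairs the Gli1+ BDL libraries lay below every other library. Psmb5 itself had 75.0 and 65.6 CPM in the Gli1+ BDL libraries, 35.3 and 49.8 CPM in the uninjured Gli1+ libraries, 44.6 and 51.4 CPM in the stellate BDL libraries and 27.8 and 27.6 CPM in the uninjured stellate libraries. Psmb10 had 93.4 and 105 CPM in the Gli1+ BDL libraries, 179 and 324 CPM in the uninjured Gli1+ libraries, 202 and 269.8 CPM in the stellate BDL libraries and 234 and 224 CPM in the uninjured stellate libraries. No test was made of the ratios, and the 12 listed proteasome genes had 0 calls by limma in any of the 5 comparisons, with 0 to 3 at an unadjusted p below 0.05, 0 by edgeR and up to 1 by DESeq2.

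**Figure D4:**
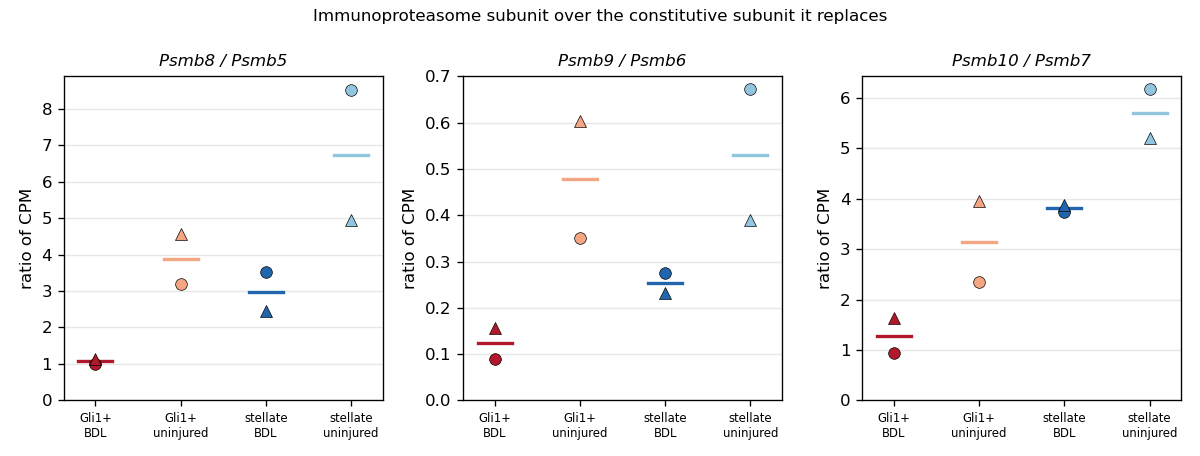
Ratio of the CPM of each immunoproteasome gene to that of its standard counterpart (Psmb8 to Psmb5, Psmb9 to Psmb6, Psmb10 to Psmb7) in each library, by group. The Gli1+ BDL points are the lowest in each panel, at 1.0 and 1.14 for the first pair.

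Other genes of the pathway came from lists chosen with earlier results of these data known. Of 12 other class I heavy chains, limma called 0 in uninjured liver (6 at an unadjusted p below 0.05, 1 by edgeR, 4 by DESeq2) and 1 after BDL, H2-T23, lower in Gli1+ cells. H2-T23, the gene of Qa-1, which engages receptors of natural killer cells, had 36.1 and 55.1 CPM in the Gli1+ BDL libraries, 130.0 and 169.9 CPM in the uninjured Gli1+ libraries, 145 and 201 CPM in the stellate BDL libraries and 397 and 268 CPM in the uninjured stellate libraries. Its log2 fold change after BDL was -1.91 ± 0.37 (limma BH-adjusted p = 0.0184), and the call was lost without any single BDL library (adjusted p from 0.0558 to 0.164). The median of these 12 genes after BDL was -1.27. Of 8 peptide loading genes limma called 0 in each comparison, with 0 to 2 at an unadjusted p below 0.05, 0 by edgeR and up to 2 by DESeq2. Tap2, the partner of Tap1, had 32.9 and 36.0 CPM in the Gli1+ BDL libraries, 97.2 and 238 CPM in the uninjured Gli1+ libraries, 122 and 81.7 CPM in the stellate BDL libraries and 184 and 182 CPM in the uninjured stellate libraries, lower in both Gli1+ BDL libraries than in any other. Tapbp, tapasin, which bridges class I molecules to TAP, had 236 and 225 CPM in the Gli1+ BDL libraries, 376 and 1209 CPM in the uninjured Gli1+ libraries, 282 and 253 CPM in the stellate BDL libraries and 559 and 674 CPM in the uninjured stellate libraries.

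Among the listed regulators, limma called Irf8 in uninjured liver and Irf1 after BDL, each lower in Gli1+ cells. Irf8, an interferon regulatory factor best known from myeloid cells, had 26.3 and 35.7 CPM in the Gli1+ BDL libraries, 7.28 and 20.5 CPM in the uninjured Gli1+ libraries, 133 and 65.2 CPM in the stellate BDL libraries and 173 and 52.6 CPM in the uninjured stellate libraries and stood at -2.85 ± 0.69 in uninjured liver (limma BH-adjusted p = 0.0326). Uninjured stellate replicate 2, with the low macrophage sum, had 52.6 CPM of it, above both uninjured Gli1+ libraries. Irf1, an activator of class I and immunoproteasome genes, had 52.3 and 71.7 CPM in the Gli1+ BDL libraries, 107 and 149 CPM in the uninjured Gli1+ libraries, 158 and 169 CPM in the stellate BDL libraries and 185 and 252 CPM in the uninjured stellate libraries and was lower in Gli1+ than in stellate cells after BDL, at -1.40 ± 0.34 (adjusted p = 0.0439). Leaving out uninjured Gli1+ replicate 1, either stellate BDL library or uninjured stellate replicate 1, the adjusted p of Irf8 was 0.0584 to 0.185. Irf8 was also lost without either Gli1+ BDL library (0.0663 and 0.0668), and Irf1 without any BDL library (0.106 to 0.256).

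The master regulators of the classes were not called. Nlrc5, the transactivator of class I genes, had 0.0806 and 5.81 CPM in the Gli1+ BDL libraries, 2.13 and 7.25 CPM in the uninjured Gli1+ libraries, 26.4 and 15.3 CPM in the stellate BDL libraries and 58.2 and 12.4 CPM in the uninjured stellate libraries, with Gli1+ below stellate libraries in both conditions. Its log2 fold changes were -2.47 ± 1.13 in uninjured liver and -2.96 ± 1.13 after BDL (limma BH-adjusted p = 0.227 and 0.182). Ciita, the transactivator of class II genes, had 5.88 and 6.65 CPM in the Gli1+ BDL libraries, 3.29 and 3.37 CPM in the uninjured Gli1+ libraries, 0.409 and 2.21 CPM in the stellate BDL libraries and 8.81 and 0 CPM in the uninjured stellate libraries. Like the class II genes, it was split in uninjured stellate cells, with 0 reads in replicate 2, and both Gli1+ BDL libraries lay above both stellate BDL libraries.

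Of 10 tested genes of class II loading and processing, limma called 0 in each comparison, with 0 to 2 at an unadjusted p below 0.05, 0 by edgeR and up to 1 by DESeq2. H2-DMa and H2-DMb1 form the DM molecule, which exchanges peptides on class II. H2-DMa had 14.2 and 43.5 CPM in the Gli1+ BDL libraries, 43.3 and 34.7 CPM in the uninjured Gli1+ libraries, 4.96 and 12.4 CPM in the stellate BDL libraries and 102 and 2.55 CPM in the uninjured stellate libraries. H2-DMb1 had 32.3 and 30.1 CPM in the Gli1+ BDL libraries, 14.1 and 54.4 CPM in the uninjured Gli1+ libraries, 7.30 and 3.40 CPM in the stellate BDL libraries and 129 and 0.156 CPM in the uninjured stellate libraries. Ctss, cathepsin S, which trims the invariant chain, had 211 and 395 CPM in the Gli1+ BDL libraries, 163 and 154 CPM in the uninjured Gli1+ libraries, 272 and 232 CPM in the stellate BDL libraries and 946 and 10.4 CPM in the uninjured stellate libraries. All 3 were split in uninjured stellate cells in the direction of the macrophage sums. Of 5 tested costimulation genes limma called Cd276, an immune checkpoint protein of the B7 family, as higher in Gli1+ cells after BDL, at 39.1 and 56.5 CPM in Gli1+ BDL against 0 and 2.72 CPM in stellate BDL libraries (log2 fold change 4.64 ± 0.87, BH-adjusted p = 0.0164). It was not called by edgeR (0.222), nor without Gli1+ BDL replicate 1 (0.115), Gli1+ BDL replicate 2 (0.128) or stellate BDL replicate 1 (0.135).

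The genes most like H2-K1 and Cd74 were found by the root mean square difference of log2(CPM + 1), centred over the 8 libraries, among 10287 genes of mean CPM of at least 10. Closest to H2-K1 were Arhgef17 (0.20), B2m (0.22), Lrrk1 (0.22), Parp14 (0.23) and Tap1 (0.24), while H2-D1 ranked 369. Closest to Cd74 were H2-Ab1 (0.42), H2-Aa (0.45), H2-DMb1 (0.66), Rab6b (0.78) and Stk10 (0.79), while H2-Eb1 ranked 73. The points share their libraries, and no test was made.

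The nonclassical genes of the Q region showed a split between libraries that did not follow the groups. It was chosen after its values were seen. H2-Q1 had 4.59 and 0.299 CPM in the Gli1+ BDL libraries, 17.1 and 24.2 CPM in the uninjured Gli1+ libraries, 29.1 and 1.87 CPM in the stellate BDL libraries and 0.245 and 0.209 CPM in the uninjured stellate libraries, and H2-Q2 had 14.7 and 0.718 CPM in the Gli1+ BDL libraries, 17.8 and 36.9 CPM in the uninjured Gli1+ libraries, 65.2 and 0.255 CPM in the stellate BDL libraries and 1.83 and 1.25 CPM in the uninjured stellate libraries. H2-Q7 had 15.8 and 47.4 CPM in the Gli1+ BDL libraries, 27.2 and 83.0 CPM in the uninjured Gli1+ libraries, 128 and 151 CPM in the stellate BDL libraries and 261 and 112 CPM in the uninjured stellate libraries. The ratio of H2-Q1, H2-Q2 and H2-Q4 together to H2-Q6 and H2-Q7 together was 1.79 and 0.08 in Gli1+ BDL, 1.13 and 0.81 in uninjured Gli1+, 1.09 and 0.06 in stellate BDL and 0.04 and 0.04 in uninjured stellate libraries. Libraries of 1 group thus differed more than 10 times in the BDL groups of both populations. These genes are close paralogs with shared sequence, and the sources used here do not name the animals' haplotypes.

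**Figure D5:**
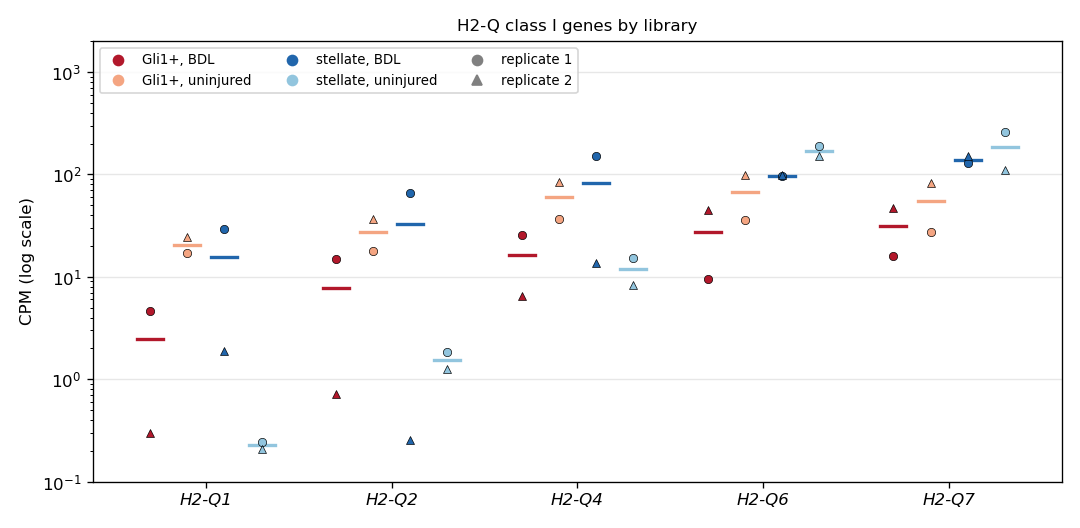
CPM (log axis) of H2-Q1, H2-Q2, H2-Q4, H2-Q6 and H2-Q7 in each library, by group. H2-Q1 and H2-Q2 are low in replicate 2 of both BDL groups and in both uninjured stellate libraries, while H2-Q6 and H2-Q7 are not.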

How the data were processed

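RNA of 8 libraries of sorted mouse liver cells was analysed. The authors deposited CPM, gene counts scaled so that each library sums to 1000000; FastQC, STAR 2.5.2b, featureCounts, DESeq2 and the build mm10 are named, without roles, per the submitters' processing notes. Each value was a whole multiple of that of 1 read, so whole reads were recovered (100.0% of values within 0.1 read). Of 30395 identifiers, 30214 matched GENCODE vM21 on GRCm38, which gave symbols and coordinates counted from 1. Promoter sequences came from RefSeq (GRCm38.p6).

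On log2(CPM + 1), limma-trend (version 3.58.1, under R 4.3.3) was fitted to 16446 genes, those reaching 1 CPM in 2 or more libraries, with all 8 libraries in 1 model of 4 group means and 4 residual degrees of freedom. P-values were two-sided and adjusted by Benjamini-Hochberg over all genes, with a threshold of 0.05. The pseudocount of 1 understates changes of low genes. Alternatives were a pseudocount of 0.1, no filter, TMM scaling, edgeR 4.0.16 (quasi-likelihood) and DESeq2 1.42.0 on the recovered reads, the replicate number as a block, and leaving out each library. The fit was tested on simulated data. The replicate numbers were not taken to pair the libraries, since the labels give them no shared animal, batch or day.

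The members and gene lists were chosen with earlier results of these data known. Named were all 10 members, up to 4 called genes per list and direction, preset pathway genes (1 gene is not reported here), markers of other cells, and the 5 genes most like H2-K1 and Cd74. Psmb5, Clec4f, H2-Ea-ps and the H2-Q genes were added after their values were seen. Floors cover counting error only, since PCR copies are not independent molecules. Motif letters were settled with the sequences in view.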

Additional observations from a re-analysis of the deposited data

Results flagged for a closer look

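In 4 pathway genes the libraries moved one way with BDL in Gli1+ cells and the opposite way in stellate cells, without overlap. They were 4 of 76 members and pathway genes examined (5.26%), beside 738 of 16399 genes tested with distinct symbols (4.50%). The limma test of the difference called none of them. The difference, Gli1+ minus stellate, was -5.91 log2 for H2-Q1 (BH-adjusted p = 0.447), a class I gene of the Q region that is low in some libraries of every group but uninjured Gli1+. It was -3.84 for Socs1, an inhibitor of cytokine signalling (adjusted p = 0.581), -0.88 for Psme2, a proteasome activator subunit (adjusted p = 0.736), and 0.58 for Canx, the chaperone calnexin (adjusted p = 0.795). Canx was higher after BDL in Gli1+ cells and lower in stellate cells, and the other 3 were the reverse.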

How the results depend on the processing

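Members called after BDL, 1 by limma, numbered 2 with a pseudocount of 0.1 and after TMM scaling, 3 with DESeq2, and 0 with no filter, with edgeR and with the replicate block (H2-D1 adjusted p = 0.0550 with the block). DESeq2 called 1 member in uninjured liver and 1 in the Gli1+ BDL response. Leaving out single libraries gave 0 to 3 members in uninjured liver, 0 to 1 after BDL and 0 to 1 in the stellate response. Over all genes, the uninjured count of 1822 became 810.0 with no filter and 2996 with DESeq2 (1022 to 1808 without a library), and the count after BDL of 1118 became 621 with edgeR (145 to 1375 without a library). The Gli1+ response count of 0 became 127 with no filter and 406 with DESeq2 (0 to 5 without a library). The stellate count of 37 became 97 with a pseudocount of 0.1, 6 with no filter, 22 with TMM, 62 with edgeR, 1006 with DESeq2 and 18 with the replicate block (0 to 219 without a library). The difference count of 2 became 0 with no filter and with the block, 11 with edgeR and 389 with DESeq2 (0 to 33 without a library). The cause was not tested. The labels do not say what a replicate number shares. Across genes, deviations of same-numbered libraries from their group means correlated at 0.112 between the BDL groups of both populations and at -0.112 to 0.0786 for the other 5 pairs of groups. Reversed were, in uninjured liver, H2-Aa (-0.22 with edgeR, -0.23 with DESeq2) and H2-Eb1 (-0.92 and -0.94), and in the difference, Cd74 (0.073 with TMM, 1.72 with edgeR, 1.79 with DESeq2) and H2-Aa (-0.0086 with a pseudocount of 0.1). Without single libraries the fold changes spanned, in uninjured liver, -0.66 to 0.33 for Psmb8, -0.96 to 0.44 for Psmb9, -0.56 to 5.89 for Cd74, -1.15 to 5.02 for H2-Aa, -1.02 to 5.03 for H2-Ab1 and -1.98 to 3.33 for H2-Eb1. They spanned, in the Gli1+ response, -1.82 to 0.13 for Cd74, -1.75 to 0.10 for H2-Ab1 and -0.66 to 1.0 for H2-Eb1. In the stellate response they spanned -1.03 to 0.037 for H2-D1, -0.75 to 0.043 for Psmb8, -4.06 to 2.39 for Cd74, -4.09 to 2.07 for H2-Aa and -4.43 to 1.62 for H2-Ab1. In the difference they spanned -0.86 to 0.55 for Tap1, -1.16 to 0.25 for Psmb9, -3.24 to 3.21 for Cd74, -3.06 to 3.11 for H2-Aa and -2.45 to 3.60 for H2-Ab1. With no filter Irf8 (adjusted p = 0.123), H2-T23 (0.0521) and Irf1 (0.0875) lost their calls, as did Irf1 with edgeR (0.0819). Of 770 recomputed values, 683 kept direction and call, and 43 reversed. A call was lost in 34 and gained in 10. Most of the 770 belong to results that the main fit did not call, so the 683 are mainly non-calls that stayed so. Genes near 3 reads, such as H2-Eb1 in 1 stellate BDL library, are limited by depth.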
